A study of Sus scrofa with 105 samples.

Results

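The 2 arms of 4 microRNA (miRNA) precursors, miR-22, miR-574, miR-664 and miR-92b, were followed through 105 small RNA libraries of piglet brain. The 8 mature miRNAs (ssc-miR-22-3p, ssc-miR-22-5p, ssc-miR-574-3p, ssc-miR-574-5p, ssc-miR-664-3p, ssc-miR-664-5p, ssc-miR-92b-3p and ssc-miR-92b-5p, the prefix marking the pig) were taken by name from a count matrix that held 448 mature miRNAs, among them 96 precursors with both arms named. Each of the 8 had 1 row in the matrix, and all 8 passed the low-count filter in both brain regions. They were chosen from measured values, as precursors with discordant arms, and the comparison used for the choice was not named. It was taken to be that of control animals with animals examined 1 day after brain injury. That comparison, and the comparison of drug-treated injured animals with the same controls, is therefore given as a description with no test.

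A miRNA is cut from a hairpin precursor, and either strand of the hairpin stem, named the 5p or the 3p arm, can be loaded into an Argonaute protein to direct the silencing of messenger RNAs. The unloaded strand is usually degraded, so the arms of one precursor commonly differ widely in abundance although they are made in equal number. miR-22 is a broadly expressed miRNA that is abundant in brain and heart. miR-92b belongs to the miR-25 seed family and is known from neural progenitor cells. In the RefSeq annotation of the pig assembly Sscrofa11.1, the miR-574 gene lies within the protein-coding gene FAM114A1 and the miR-664 gene within RAB3GAP2, while the miR-92b gene overlaps no other gene and stands between THBS3 and MUC1. The table held no entry for miR-22.

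The brains were those of female piglets and had been fixed in formalin and embedded in paraffin, a treatment known to fragment RNA. For 52 of 53 animal codes, 1 library had been made from the frontal lobe and 1 from the hippocampus with the amygdala. Controls were sham or naive animals with a survival of 0 to 8 days (18 libraries per region). Untreated injured animals survived 1 day (10 per region) or 1 week, which covered 6 to 8 days (15 per region). A last group was injured and received cyclosporine A (CsA), an immunosuppressant. It was given into a vein (20 mg/kg/day), starting with a loading dose at 6 hours and followed by infusion over 24 hours, and survival was 30 hours (9 frontal lobe and 10 hippocampus and amygdala libraries). Strain, age and injury device were not given in the sources used here, and the labels name no injured group given vehicle.

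Depth moved with the groups. Totals per library spanned 98008 to 12703535 counts. The median was 4679652 in the sham frontal lobe libraries against 9866050 in those of 1 day, and 5365075 against 9223635 in the hippocampus and amygdala. The 3 libraries under 1000000 counts were all sham libraries. The summed level of 4 neuronal marker miRNAs had group medians of 31812 to 39151 counts per 1000000 (CPM). None of these 4 was at 0 in every library. Summed levels of 3 erythrocyte and 4 leukocyte markers were between 98.3 and 222.6 CPM and between 147 and 165 CPM as group medians. The erythrocyte medians were 155 CPM in sham and 107 at 1 day in the frontal lobe, and 220 and 163 in the hippocampus and amygdala. Other lists also moved with group and region. For 3 oligodendrocyte markers the medians were 1680 CPM in sham and 1375 at 1 day in the frontal lobe. In the hippocampus and amygdala they were 1054 and 865. The 2 endothelium markers had 5646 and 6573 CPM, and 4408 and 5578. Group medians were 35.9 to 76.4 CPM for 2 liver markers and 87.7 to 168 CPM for 4 skeletal muscle markers. Of the liver markers, miR-122-3p was at 0 in every library. Of the skeletal muscle markers, miR-133a-5p was at 0 in every library outside the frontal lobe groups of 1 week and CsA. The part of cell composition in the member differences was not tested. The leading digits of the animal codes, whose meaning the labels do not give, were also spread unevenly: all 1 day and CsA animals had codes beginning 11, 12 or 13, and the 1 week animals 10, 11, 14, 15 or 17. The letter that followed the digits was U in every 1 day and CsA animal and in no sham animal with the same leading digits, so it cannot be told apart from injury in that comparison.

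One arm dominated each precursor in every library, and the dominant arm was the same in all groups. For miR-22 and miR-92b it was the 3p arm, and for miR-574 and miR-664 the 5p arm. By median CPM in the frontal lobe, the dominant arms ranked 69 (miR-92b-3p), 80 (miR-22-3p), 81 (miR-664-5p) and 94 (miR-574-5p) among 284 miRNAs tested. Their partners ranked 187 (miR-574-3p), 198 (miR-22-5p), 214 (miR-664-3p) and 228 (miR-92b-5p). In the hippocampus and amygdala miR-92b-3p stood higher, at rank 48 of 290. Levels are CPM of the counts of all miRNAs that passed the filter, scaled by the trimmed mean of M-values. The arm ratio is log2 of the 5p count over the 3p count of one library, each raised by a pseudocount of 0.5, and needs no scaling between libraries. In bulk tissue, fewer cells that carry a miRNA and less of it per cell cannot be told apart.

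**Figure D1:**
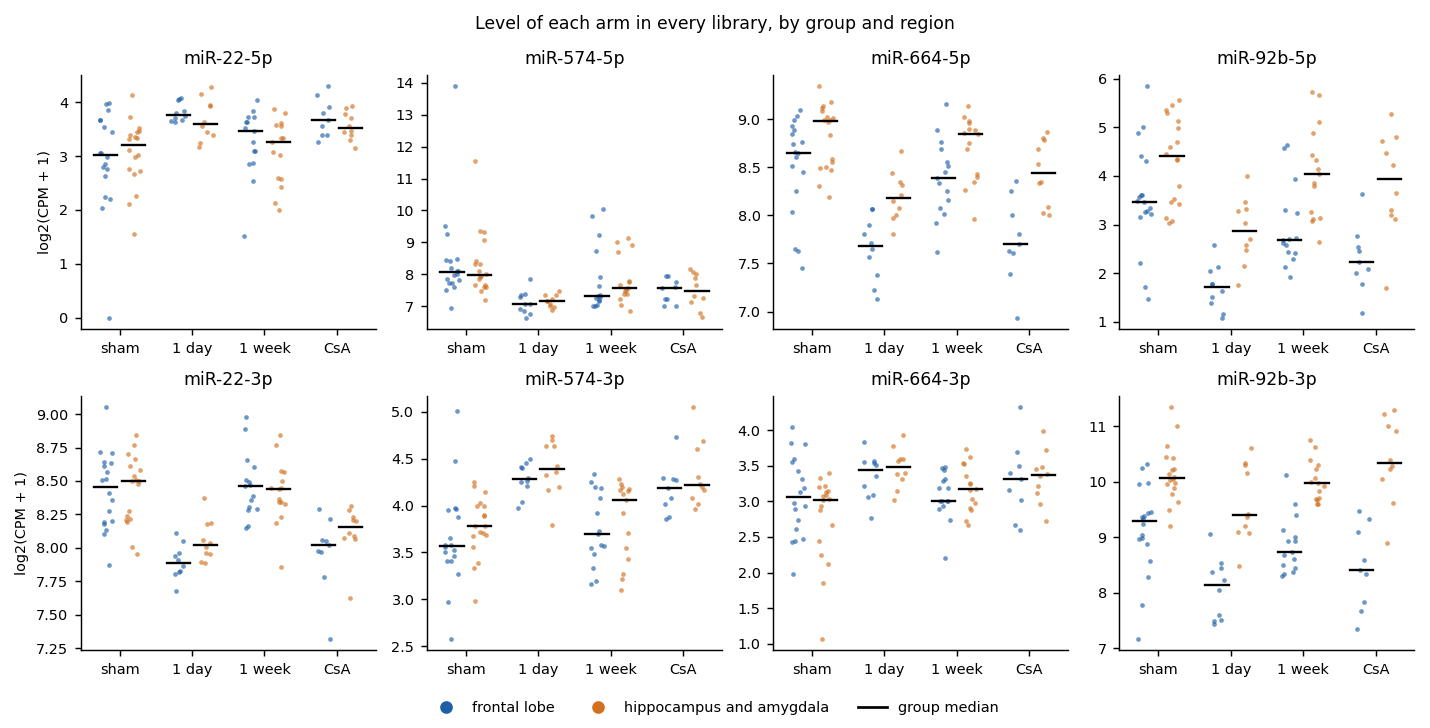
Level of each arm as log2(CPM + 1) in every library, by group on the x axis, with frontal lobe libraries in blue, hippocampus and amygdala libraries in orange and black bars at the group medians. The dominant arms miR-22-3p, miR-664-5p and miR-92b-3p had lower medians at 1 day than in sham, while miR-22-5p and miR-574-3p had higher ones.

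The miR-22 precursor had a lower major arm and a higher minor arm 1 day after injury than in sham. In the frontal lobe, miR-22-3p had a median of 351 CPM in sham (range 233 to 529.8), 236 CPM at 1 day (203 to 276), 352 CPM at 1 week (282 to 505) and 258 CPM with CsA (159 to 313). Sham and 1 week thus stood together, 1 day and CsA stood lower, and the sham and 1 day ranges overlapped. In the hippocampus and amygdala the medians of miR-22-3p were 361, 259, 347 and 284 CPM in the same order.

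The minor arm, miR-22-5p, had a frontal lobe median of 7.09 CPM in sham (0 to 14.8), 12.7 CPM at 1 day (11.4 to 15.9), 10.1 CPM at 1 week (1.87 to 15.6) and 11.7 CPM with CsA (8.61 to 18.7). Here 1 day and CsA stood highest and sham lowest, with the widest ranges in sham and 1 week. Its count was 0 in 1 frontal lobe sham library, the one of 98008 counts, where a count of 0 allows a level of up to 46.6 CPM (3 counts, counting error only). In the hippocampus and amygdala the medians were 8.31, 11.1, 8.57 and 10.4 CPM.

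As log2 differences between 1 day and sham, miR-22-5p differed by 0.67 ± 0.21 (SE) in the frontal lobe, with 0.63 ± 0.20 in the hippocampus and amygdala. miR-22-3p differed by -0.56 ± 0.10 and -0.39 ± 0.09. The CsA group differed from the same sham libraries by 0.60 ± 0.22 and 0.48 ± 0.21 for the 5p arm and by -0.47 ± 0.11 and -0.32 ± 0.09 for the 3p arm. The median arm ratio of miR-22 moved from -5.43 in sham to -4.24 at 1 day in the frontal lobe, so that the 3p arm went from 43.2 to 18.9 times the 5p arm. In the hippocampus and amygdala it went from 40.5 to 24.0 times. With the log10 library total as a covariate, the ratio difference between 1 day and sham was 1.25 in the frontal lobe against 1.32 without it, and 0.85 against 1.06 in the other region.

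The miR-574 precursor also had a lower major arm and a higher minor arm at 1 day than in sham. In the frontal lobe, miR-574-5p had a median of 265 CPM in sham (121.8 to 15269), 132 CPM at 1 day (98.5 to 232), 159 CPM at 1 week (127 to 1055) and 187 CPM with CsA (126.1 to 247). Sham was the highest group and 1 day the lowest, and all ranges overlapped. The top value of 15269 CPM belonged to sham replicate 15, the library of 98008 counts, and the next sham library stood at 727 CPM. In the hippocampus and amygdala the medians were 249, 141, 191 and 179 CPM, and the highest sham value, 2984 CPM, belonged to replicate 6, a library of 401354 counts.

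The raw counts of miR-574-5p varied far less between libraries than the totals did. Its count was 982 in the frontal lobe sham library of 98008 counts and between 1159 and 1748 in the 10 frontal lobe libraries of 1 day, whose totals were 5707853 or more. Over the 52 frontal lobe libraries the slope of its log2 count on the log2 library total was 0.22, the fifth lowest of 284 miRNAs, where the median miRNA had a slope of 1.12. For the hippocampus and amygdala the slope was 0.30 over 53 libraries, rank 7 from the lowest of 290. Within the 18 sham libraries alone the slopes were 0.24 and 0.28. A slope near 1 is that of an arm whose share of the library does not change with depth.

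**Figure D2:**
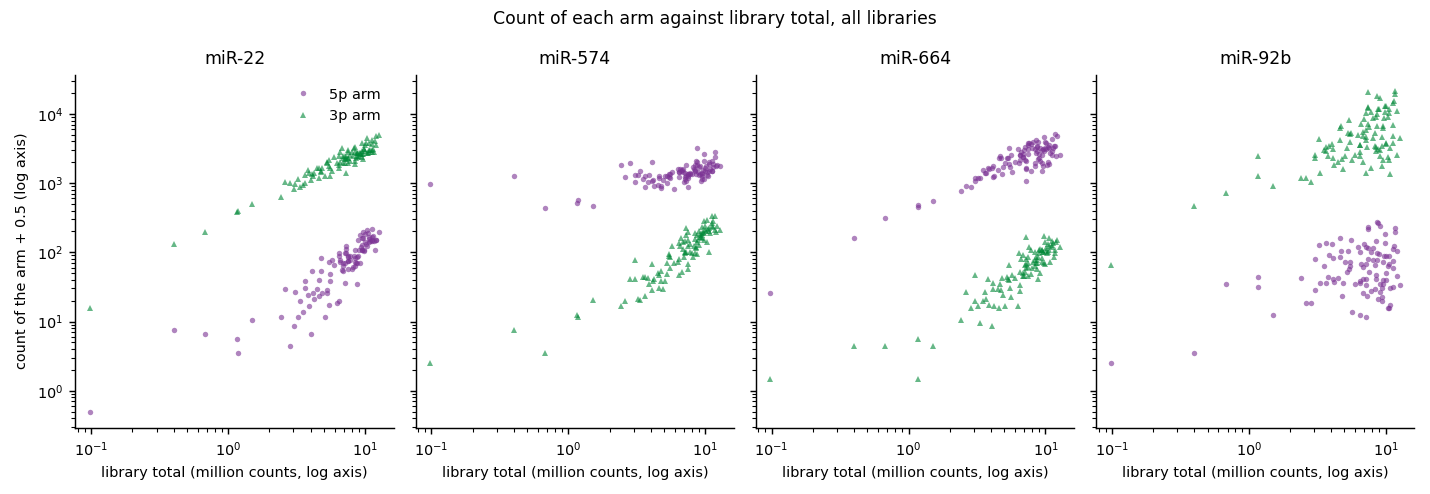
Count of each arm plus 0.5 (log axis) against the library total in units of 1000000 counts (log axis) for all 105 libraries, with 5p arms as purple circles and 3p arms as green triangles. The counts of miR-574-5p stay between 438 and 3205 over the whole range of totals, and those of both miR-22 arms, both miR-664 arms and miR-574-3p rise with the total.

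The minor arm, miR-574-3p, had counts that rose with depth, with slopes of 1.12 and 1.31. Its frontal lobe median was 10.9 CPM in sham (4.98 to 31.1), 18.5 CPM at 1 day (14.7 to 21.6), 12.0 CPM at 1 week (7.98 to 19.2) and 17.2 CPM with CsA (13.4 to 25.5). The 1 day and CsA groups stood highest. The sham maximum of 31.1 CPM was 2 counts in the library of 98008 counts, and the next sham library, at 21.3 CPM, lay below the maxima of 1 day and CsA, with ranges that still overlapped. Medians in the hippocampus and amygdala were 12.8, 20.0, 15.6 and 17.6 CPM. The log2 difference between 1 day and sham was 0.67 ± 0.15 (SE) in the frontal lobe, with 0.65 ± 0.14 in the hippocampus and amygdala, and with CsA 0.57 ± 0.15 and 0.59 ± 0.15.

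For miR-574-5p the log2 difference between 1 day and sham was -2.93 ± 0.69 (SE) in the frontal lobe, with -1.64 ± 0.37 in the hippocampus and amygdala. Without frontal lobe sham replicate 15 it was -1.06, and without hippocampus and amygdala sham replicate 6 it was -1.08. With the log10 library total as a covariate it was -0.22 and -0.34. The CsA group differed from sham by -2.56 ± 0.71 and -1.23 ± 0.36, by -0.74 and -0.67 without those same libraries, and by -0.02 and 0.10 with the covariate, where the direction turned in the hippocampus and amygdala. The size of the level difference of this major arm thus changed with the covariate and with single libraries left out. Depth moved with the groups, so its part cannot be told apart from that of group.

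The arm ratio of miR-574 had a frontal lobe median of 4.51 in sham (3.06 to 8.62), 3.04 at 1 day (2.18 to 3.52), 3.78 at 1 week (3.00 to 6.81) and 3.54 with CsA (2.52 to 4.00). For the hippocampus and amygdala it was 4.31 in sham (3.460 to 7.38), 2.70 at 1 day (2.17 to 3.456), 3.71 at 1 week (2.72 to 5.93) and 3.22 with CsA (2.02 to 4.16). There the 1 day and sham libraries did not overlap, by a margin in the third decimal, and in the frontal lobe they did. The ratio difference between 1 day and sham was -1.95 ± 0.40 (SE) and -1.78 ± 0.34, or -0.96 and -0.87 with the library total as a covariate. The 5p arm went from 22.8 to 8.24 times the 3p arm in the frontal lobe and from 19.9 to 6.48 times in the other region.

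Within the 18 sham libraries, with no injury to compare, the miR-574 ratio fell with the log10 library total. Pearson's r was -0.85 in the frontal lobe (permutation p = 0.00039, adjusted 0.0077 over 118 relations) and -0.88 in the hippocampus and amygdala (permutation p = 3e-05, adjusted 0.0012). Spearman's rho was -0.49 (permutation p = 0.043, adjusted 0.30) and -0.89 (p = 1e-05, the smallest that the permutations can give, adjusted 0.0012). Without the 2 libraries farthest from the median total r was -0.36 and -0.77, so in the frontal lobe the relation rested on those libraries. Of all 118 relations, 59 arm pairs in 2 regions, 8 passed (6.78%). The other 3 member ratios did not pass in either region, with r between -0.56 (miR-92b, frontal lobe, adjusted p = 0.15) and 0.13. Without the 2 farthest libraries their r was 0.21 (miR-22), -0.33 (miR-664) and -0.12 (miR-92b) in the frontal lobe, and 0.54, -0.66 and -0.44 in the hippocampus and amygdala.

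miR-664 had its major arm lower and its minor arm higher at 1 day. Its major arm, miR-664-5p, had a frontal lobe median of 401 CPM in sham (174 to 547), 204 CPM at 1 day (139 to 268), 333 CPM at 1 week (196 to 571) and 207 CPM with CsA (121 to 327). The 1 day and CsA groups stood lowest, with nearly equal medians, and overlapped the lower part of sham. For the hippocampus and amygdala the medians were 505, 289.6, 459.5 and 346 CPM, each above the frontal lobe median of its group.

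The minor arm, miR-664-3p, had frontal lobe medians of 7.33 CPM in sham (2.92 to 15.5), 9.82 CPM at 1 day (5.79 to 13.3), 7.05 CPM at 1 week (3.59 to 10.2) and 8.98 CPM with CsA (5.04 to 19.0). These ranges overlapped almost wholly. For the hippocampus and amygdala the medians were 7.14, 10.1, 7.99 and 9.34 CPM, and only there did the 1 day range of 7.06 to 14.2 CPM reach well above the sham range of 1.10 to 9.52 CPM.

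The log2 difference of miR-664-5p between 1 day and sham was -0.91 ± 0.17 (SE) in the frontal lobe, with -0.64 ± 0.13 in the hippocampus and amygdala. That of miR-664-3p was 0.28 ± 0.19 and 0.68 ± 0.17. With CsA the 5p arm differed from sham by -0.79 ± 0.18 and -0.38 ± 0.13, and the 3p arm by 0.30 ± 0.19 and 0.56 ± 0.17. The 5p arm went from 52.0 to 19.8 times the 3p arm in the frontal lobe and from 60.5 to 28.3 times in the other region. The ratio difference between 1 day and sham was -1.12 ± 0.31 and -1.39 ± 0.27, and with the library total as a covariate -1.04 and -1.15.

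miR-92b did not have arms that moved in opposite directions 1 day after injury. Both arms were lower than in sham in both regions, and the minor arm differed more. Its major arm, miR-92b-3p, had a frontal lobe median of 626 CPM in sham (143 to 1271), 282 CPM at 1 day (173 to 530.1), 425 CPM at 1 week (315 to 1113) and 341 CPM with CsA (163 to 706). For the hippocampus and amygdala it was 1067 CPM in sham (585 to 2592), 673 CPM at 1 day (356 to 1566), 1006 CPM at 1 week (775 to 1729.5) and 1296 CPM with CsA (476 to 2516). The CsA group was thus second lowest (frontal lobe) and highest (hippocampus and amygdala), with ranges that overlapped those of sham in both.

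The minor arm, miR-92b-5p, had frontal lobe medians of 10.1 CPM in sham (1.77 to 56.5), 2.28 CPM at 1 day (1.12 to 5.00), 5.44 CPM at 1 week (2.78 to 23.9) and 3.70 CPM with CsA (1.26 to 11.3). It kept that order of groups in the hippocampus and amygdala, with 20.1, 6.38, 15.5 and 14.6 CPM. Its counts were the lowest of the members at 1 day, with a median of 24 (frontal lobe) and 66 (hippocampus and amygdala). Its count slope on the library total was 0.38 and 0.61, below that of its partner at 0.75 and 0.96.

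The log2 difference of miR-92b-5p between 1 day and sham was -2.37 ± 0.42 (SE) in the frontal lobe, with -1.65 ± 0.39 in the hippocampus and amygdala. That of miR-92b-3p was -1.15 ± 0.27 and -0.47 ± 0.22. With CsA the arms had values of -1.53 ± 0.42 (5p) and -0.70 ± 0.27 (3p) in the frontal lobe, and of -0.41 ± 0.36 and 0.32 ± 0.22 in the hippocampus and amygdala, the one of these 4 comparisons in which their signs were opposite. The 3p arm went from 57.0 times the 5p arm in sham to 119 times at 1 day in the frontal lobe, and from 55.1 to 123.9 times in the other region. The ratio difference was -1.16 ± 0.24 and -1.05 ± 0.25. These ratio differences and the level differences of miR-92b above come from the fits without the library total as a covariate. The 1 day values of miR-92b from the fits with that covariate are not given here. The count slope of miR-92b-5p on that total ranked 8 from the lowest of 284 miRNAs in the frontal lobe. In the hippocampus and amygdala it ranked 15 from the lowest of 290.

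**Figure D3:**
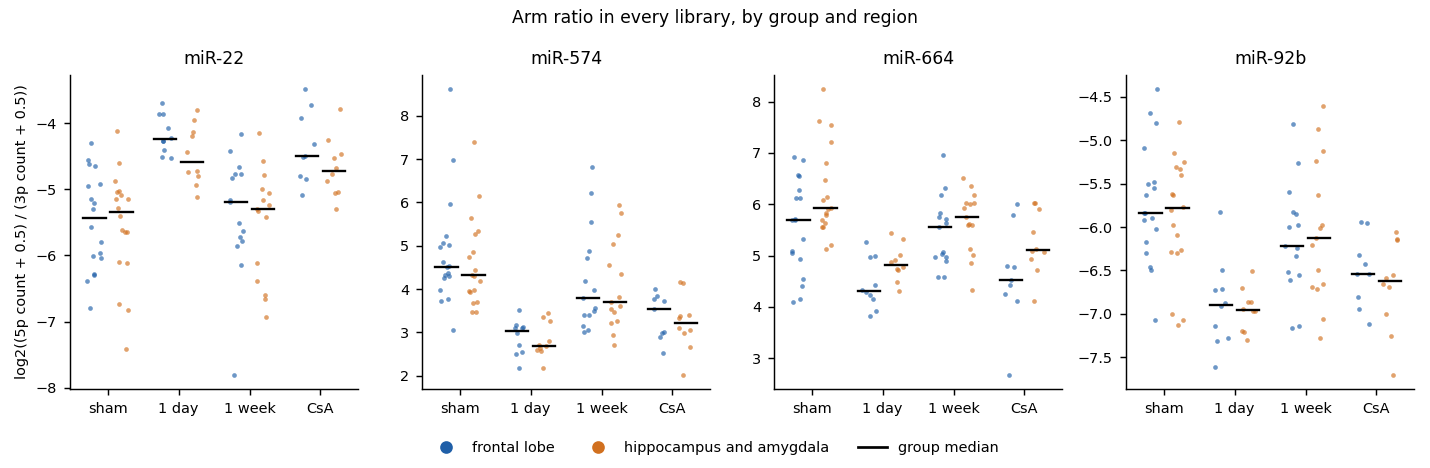
Arm ratio of each precursor, log2 of the 5p count over the 3p count, in every library by group, with frontal lobe libraries in blue, hippocampus and amygdala libraries in orange and black bars at the group medians. At 1 day the median was higher than in sham for miR-22 (-4.24 against -5.43 in the frontal lobe) and lower for miR-574, miR-664 and miR-92b.

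Set beside the background, members were not alone in these differences. At 1 day against sham, edgeR's quasi-likelihood test called 44.7% of 284 frontal lobe miRNAs and 48.6% of 290 hippocampus and amygdala miRNAs at an adjusted p under 0.05, and limma called 49.2% and 42.4% of 59 arm ratios. In the frontal lobe 53 of the called miRNAs were higher and 74 lower, against 74 and 63 with DESeq2-type (RLE) size factors. For CsA against sham 34.2% and 20.3% of miRNAs and 44.1% and 37.3% of ratios were called. With the log10 library total as a covariate the shares at 1 day were 19.7% of miRNAs in each region (8 higher and 48 lower in the frontal lobe) and 23.7% and 30.5% of ratios. For CsA they were then 7.04% and 0.69% of miRNAs and 18.6% and 0.0% of ratios. The arms had differences of opposite sign between 1 day and sham in 21 of 59 pairs in the frontal lobe (35.6%) and 24 in the other region (40.7%). Nothing is read from these shares for the members, which the same values were taken to have chosen.

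By the size of their ratio differences the members stood high but not at the top. The comparison is the one taken to have chosen them, so their places are only a description. Among 59 frontal lobe pairs ordered by the size of the ratio difference between 1 day and sham, miR-574 was number 4, miR-22 number 7, miR-92b number 10 and miR-664 number 12. By the same order in the hippocampus and amygdala, miR-574 was number 4, miR-664 number 6, miR-22 number 13 and miR-92b number 14. The pair in first place was miR-885 in both regions, with a ratio difference of 2.65 and 2.18.

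**Figure D4:**
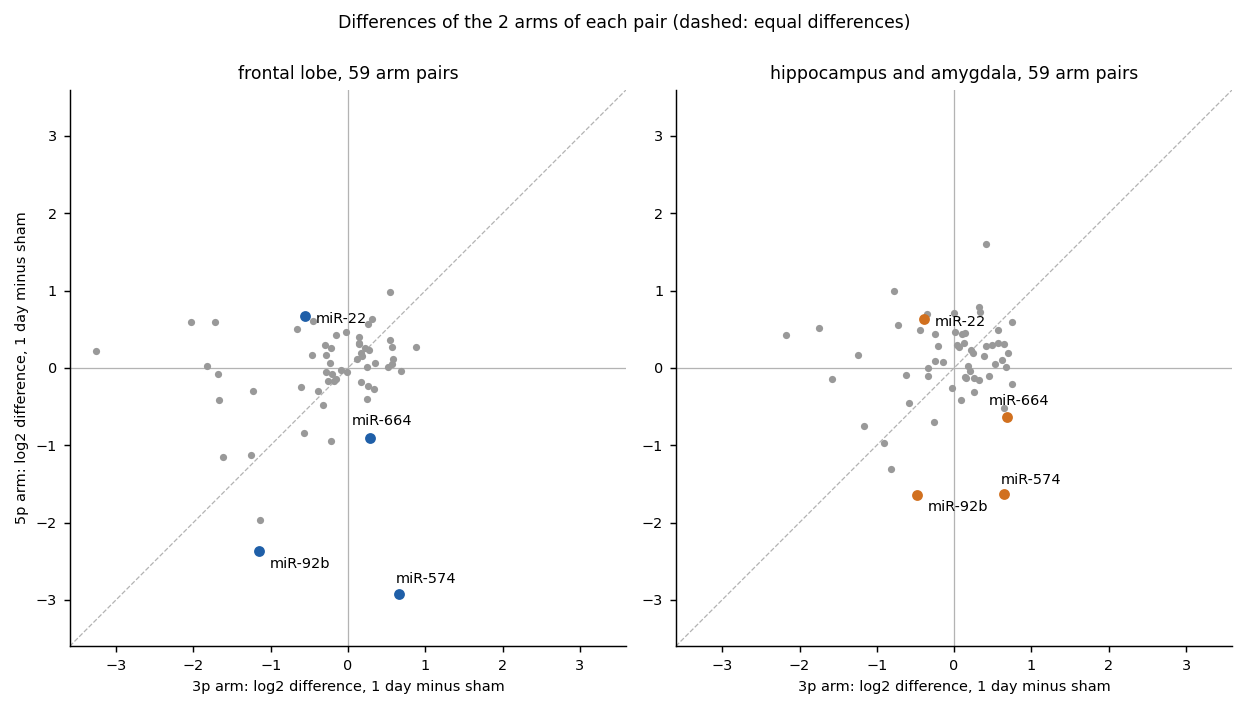
Log2 difference between 1 day and sham of the 5p arm (y axis) against that of the 3p arm (x axis) for 59 arm pairs in each region, with the 4 member precursors coloured and named, other pairs in grey and a dashed line where both differences are equal. miR-22, miR-574 and miR-664 lie in the quadrants of opposite signs and miR-92b in that of a shared negative sign.

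Within sets of animals that shared leading code digits, all member differences between 1 day and sham but 1 kept their sign. In the frontal lobe, among codes beginning 11 (5 animals of 1 day, 6 sham), the ratio differences between 1 day and sham were 1.22 (miR-22), -1.92 (miR-574), -1.23 (miR-664) and -1.21 (miR-92b). Among codes beginning 12 or 13 (5 and 5) they were 0.93, -1.44, -0.89 and -0.82. Hippocampus and amygdala values were 1.44, -2.03, -2.06 and -1.48 among codes beginning 11 and 0.85, -1.10, -0.70 and -0.39 among codes beginning 12 or 13. The ratios thus had the same sign in both sets and both regions, and each was smaller in the second set. Both sets are parts of the comparison taken to have chosen the members, so a shared sign is no separate support. Median frontal lobe totals were 7133782 counts at 1 day and 2839273.5 in sham among codes beginning 11, and 10309681 and 8767444 among codes beginning 12 or 13. The exception was a level: in the hippocampus and amygdala miR-92b-3p differed by -1.23 among codes beginning 11 and by 0.28 among codes beginning 12 or 13, and miR-92b-5p by -2.66 and -0.06. Over all miRNAs, edgeR called 0 of 284 in the frontal lobe among codes beginning 12 or 13 (0.0%; 61 had an unadjusted p under 0.05) against 91 of 281 (32.4%) among codes beginning 11. Of all frontal lobe ratios limma called 2 of 58 (3.45%) among codes beginning 12 or 13 and 14 of 57 (24.6%) among codes beginning 11. In the hippocampus and amygdala it called 5 of 59 (8.47%) and 22 of 59 (37.3%). The part of the code letter in these differences cannot be told apart from that of injury.

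One week after injury no member passed the tests against sham. This comparison shares its sham libraries with the one taken to have chosen the members. edgeR called 0 of 284 miRNAs in the frontal lobe (0.0%; 19 had an unadjusted p under 0.05 and DESeq2 called 1, miR-10386) and 1 of 290 in the hippocampus and amygdala (0.345%; miR-190a, 15 with an unadjusted p under 0.05, 3 by DESeq2). limma called 0 of 59 arm ratios in either region (0.0%), with 2 and 6 at an unadjusted p under 0.05. The 8 members had log2 differences from -1.77 to 0.19 in the frontal lobe (edgeR adjusted p of 0.36 to 1.00) and from -0.79 to 0.39 in the hippocampus and amygdala (adjusted p of 0.69 to 0.91).

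The lowest of these was miR-574-5p in the frontal lobe, at -1.77 ± 0.56 (SE; edgeR adjusted p = 0.36). Without sham replicate 15 it was 0.07, with the opposite sign. The arm ratios at 1 week against sham in the frontal lobe were 0.13 ± 0.24 for miR-22, -0.64 ± 0.35 for miR-574, -0.09 ± 0.27 for miR-664 and -0.41 ± 0.21 for miR-92b (limma adjusted p of 0.69 to 0.89). Those of the hippocampus and amygdala were 0.03 ± 0.25, -0.53 ± 0.30, -0.58 ± 0.24 and -0.15 ± 0.22 (adjusted p of 0.26 to 0.97). For miR-664 there, the 95% interval of -1.05 to -0.12 left out 0 before adjustment (unadjusted p = 0.017).

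Calls at 1 week were made in one set of animals and not in another. The sham libraries of both sets belong to the comparison taken to have chosen the members, so member p-values are not free of that choice. Among codes beginning 14, 15, 16 or 17 (9 animals of 1 week, 6 sham), all 4 member ratios passed in the frontal lobe, where limma called 18 of 55 arm ratios (32.7%) and edgeR 64 of 270 miRNAs (23.7%). The ratio differences there were 0.79 for miR-22 (limma adjusted p = 0.013), -1.01 for miR-574 (0.0096), -0.61 for miR-664 (0.043) and -0.64 for miR-92b (0.043). The member levels that passed were miR-22-5p at 0.64, miR-574-5p at -0.58, miR-664-5p at -0.51 and miR-92b-5p at -1.18 (edgeR adjusted p = 0.032, 0.0052, 0.0030 and 0.00049). The medians of miR-92b-5p there were 5.18 CPM at 1 week (3.38 to 8.78) and 11.0 CPM in sham (8.27 to 18.7), with a narrow overlap. In the other region of the same animals limma called 5 of 53 ratios (9.43%) and edgeR 20 of 271 miRNAs (7.38%), among them the miR-92b ratio at -0.71 (adjusted p = 0.025) and miR-92b-5p at -1.04 (adjusted p = 0.019).

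Depth also differed in that set of animals, with median frontal lobe totals of 8491785 counts at 1 week and 5060098.5 in sham. With the log10 library total as a covariate, a fit added after the data were seen, limma called 0 of 55 frontal lobe ratios (0.0%; 15 with an unadjusted p under 0.05) and 0 of 53 in the other region (0.0%; 9). The frontal lobe ratio differences were then 0.50 (miR-22), -0.48 (miR-574), -0.35 (miR-664) and -0.54 (miR-92b), with limma adjusted p of 0.28, 0.37, 0.50 and 0.30. edgeR called 2 of 270 frontal lobe miRNAs (0.741%), of which miR-92b-5p was one, at -1.31 ± 0.30 (SE; adjusted p = 0.033), and 3 of 271 in the other region (1.11%), where miR-92b-5p had -0.93 ± 0.25 (adjusted p = 0.056).

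Among codes beginning 10 or 11 (6 animals of 1 week, 7 sham) edgeR and limma called nothing in either region (0.0%; 18 and 22 miRNAs and 2 and 5 ratios had an unadjusted p under 0.05). Member ratio differences in that set were -0.12, -0.51, 0.10 and -0.37 in the frontal lobe for miR-22, miR-574, miR-664 and miR-92b. In the other region they were 0.42, -0.80, -1.03 and 0.01. Whether the sets differ from each other was not tested.

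CsA treatment was compared with the untreated animals of 1 day, which were examined at a different time (30 hours against 1 day). The 1 day libraries belong to the comparison taken to have chosen the members. Member p-values here, also those in sets by code digits, are therefore not free of that choice. edgeR called 0 of 284 miRNAs in the frontal lobe (0.0%; 12 had an unadjusted p under 0.05 and DESeq2 called 0) and 0 of 290 in the hippocampus and amygdala (0.0%; 69 and 15). limma called 0 of 59 arm ratios in each region (0.0%), with 0 and 2 at an unadjusted p under 0.05. The member ratios differed by -0.18 to 0.47 in the frontal lobe (limma adjusted p = 1.00 for each) and by -0.19 to 0.40 in the hippocampus and amygdala (adjusted p of 0.65 to 0.87). The widest 95% interval, that of miR-574 in the frontal lobe, ran from -0.44 to 1.38.

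The members nearest to a call were the arms of miR-92b in the hippocampus and amygdala. In the 10 libraries of 1 day miR-92b-3p lay between 356 and 1566 CPM with a median of 673, and in the 10 CsA libraries between 476 and 2516 with a median of 1296. The CsA libraries were higher as a group, with 6 of 10 inside the range of 1 day and 4 above it. The log2 difference was 0.79 ± 0.25 (SE; edgeR adjusted p = 0.11) for miR-92b-3p and 1.24 ± 0.41 (adjusted p = 0.12) for miR-92b-5p. DESeq2 gave an adjusted p of 0.021 for miR-92b-3p. Leaving out replicate 6 of 1 day or replicate 1 of CsA brought both arms below 0.05 in edgeR, as leaving out CsA replicate 2 did for the 3p arm. Over all single libraries left out, the edgeR adjusted p ran from 0.028 to 0.26 for the 3p arm and from 0.039 to 0.26 for the 5p arm.

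The values of both miR-92b arms had the same sign here. Their ratio differed by 0.27 ± 0.28 (SE; limma adjusted p = 0.72), with a 95% interval of -0.28 to 0.83. Among codes beginning 11 (5 and 5 animals) miR-92b-3p differed by 1.54 (edgeR adjusted p = 0.015) and was the only 1 of 290 miRNAs called (0.345%), while miR-92b-5p differed by 2.13 (adjusted p = 0.081). Among codes beginning 12 or 13 (5 and 5) the values were 0.24 and 0.47 (adjusted p = 0.82 and 0.68). In the frontal lobe the arms differed by 0.45 ± 0.30 (3p) and 0.85 ± 0.45 (5p), each with an edgeR adjusted p of 0.93. The difference between regions was tested for the ratios and not for the levels.

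The comparison of brain regions was taken to be one that the choice of members did not use. It gave differences for both arms of miR-92b and for 1 arm each of miR-664 and miR-22. It was made within the 52 animals with both libraries, with the animal as a block and the 4 groups weighted equally, and edgeR called 209 of 298 miRNAs (70.1%). For levels, counts of animals come from CPM scaled within each region, and log2 differences from a joint fit of both regions. The counts and the differences can therefore be offset from each other. miR-92b was the member with the largest difference, and both of its arms were higher in the hippocampus and amygdala. miR-92b-3p was higher there in 51 of 52 animals, with a log2 difference of 1.34 ± 0.12 (SE; edgeR adjusted p = 1.7e-14), or 2.54-fold. miR-92b-5p was higher in 46 of 52 animals, with 1.34 ± 0.14 (adjusted p = 1.6e-12), or 2.52-fold.

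By group, the region difference of miR-92b-3p was 0.95 ± 0.19 in sham, 1.44 ± 0.26 at 1 day, 1.09 ± 0.20 at 1 week and 1.88 ± 0.27 with CsA. That of miR-92b-5p was 0.91 ± 0.23, 1.41 ± 0.31, 1.19 ± 0.24 and 1.82 ± 0.32. By CPM scaled within each region, every animal of the 1 day, 1 week and CsA groups had the higher miR-92b-3p level in the hippocampus and amygdala. Among sham animals, 1 of 18 did not. The smallest log2 differences were 0.00051 in the 1 week group and 0.026 in the 1 day group, and the sign of values so near 0 depends on the scaling. The arm ratio of miR-92b did not pass between regions, at -0.06 ± 0.10 (limma adjusted p = 0.64), with a 95% interval of -0.26 to 0.14.

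miR-664 passed between regions in one arm. miR-664-5p was higher in the hippocampus and amygdala in 48 of 52 animals, with a log2 difference of 0.41 ± 0.05 (SE; edgeR adjusted p = 1.2e-11), or 1.33-fold. miR-664-3p was higher there in 23 of 52 animals, with -0.06 ± 0.07 (adjusted p = 0.42) and a 95% interval of -0.20 to 0.07. The arm ratio was higher there in 39 of 52 animals, by 0.50 ± 0.09 (limma adjusted p = 9.5e-06), in a comparison where limma called 25 of 61 ratios (41.0%; 8 higher and 17 lower). By group the ratio difference was 0.68 ± 0.15 in sham, 0.42 ± 0.20 at 1 day, 0.19 ± 0.16 at 1 week and 0.71 ± 0.21 with CsA, and it was above 0 in all 9 CsA animals and in 8 of 15 animals of 1 week. The 3p arm had region differences of -0.33 ± 0.12 in sham, where 3 of 18 animals were higher in the hippocampus and amygdala, 0.03 ± 0.14 at 1 day, 0.06 ± 0.12 at 1 week and -0.02 ± 0.15 with CsA. Those of the 5p arm were 0.25 ± 0.08, 0.45 ± 0.10, 0.25 ± 0.08 and 0.70 ± 0.11, so in sham the 3p value was the larger in size.

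The arms of miR-22 and miR-574 differed less between regions. miR-22-5p was lower in the hippocampus and amygdala by a log2 difference of -0.22 ± 0.09 (SE; edgeR adjusted p = 0.023), with 18 of 52 animals higher, and without the animal block the adjusted p was 0.068. miR-22-3p had -0.01 ± 0.03 (adjusted p = 0.91) and a 95% interval of -0.07 to 0.06, with 35 of 52 animals higher by CPM. The miR-22 ratio had -0.22 ± 0.10 (limma adjusted p = 0.061). It was below 0 in all 10 animals of 1 day and all 9 of CsA, and passed with a pseudocount of 5 (adjusted p = 0.015) or without any 1 of 5 animals (smallest adjusted p = 0.036). For miR-574, neither the 5p arm (-0.10 ± 0.08), the 3p arm (0.07 ± 0.06) nor the ratio (-0.15 ± 0.09) passed (adjusted p = 0.25, 0.35 and 0.17).

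**Figure D5:**
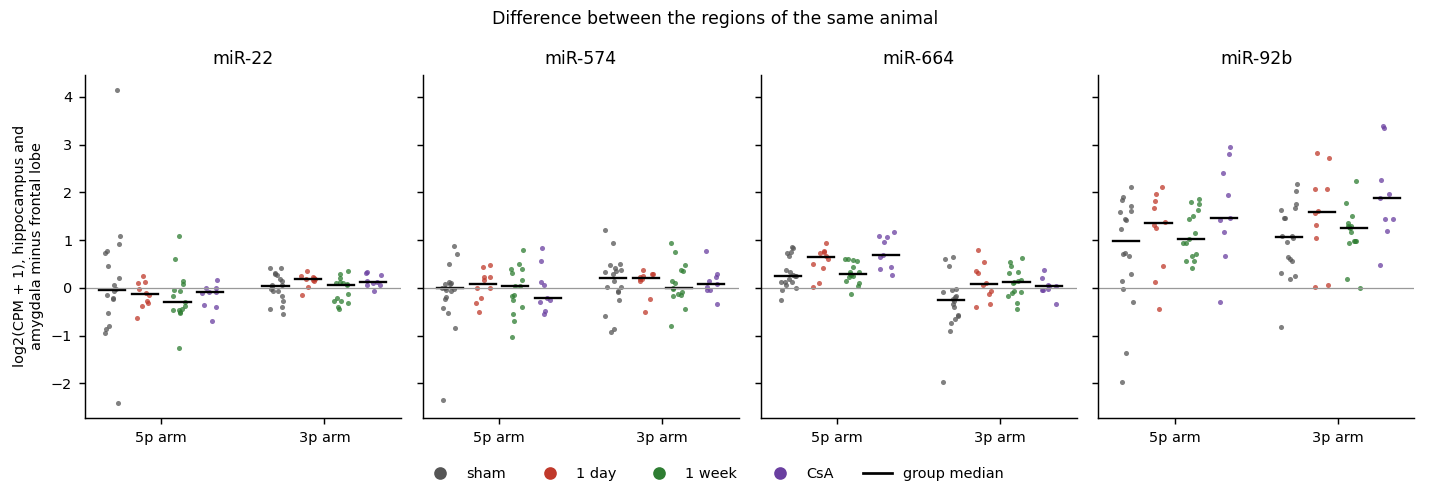
Difference in log2(CPM + 1) between the hippocampus and amygdala and the frontal lobe of the same animal (y axis) for each arm, with 1 point per animal coloured by group and black bars at the group medians. CPM were scaled within each region. Both arms of miR-92b lie mostly above 0, miR-664-5p lies above 0 in 48 of 52 animals, and the arms of miR-22 and miR-574 and miR-664-3p scatter around 0.

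Whether the group differences of the ratios had another size in one region than in the other was tested with the region terms of the same animals. For 1 week against sham limma called 0 of 61 ratios (0.0%; 4 with an unadjusted p under 0.05), and for CsA against 1 day 0 of 61 (0.0%; 1). The member nearest was miR-664 at 1 week against sham, where the difference in the hippocampus and amygdala minus that in the frontal lobe was -0.49 ± 0.22 (SE; unadjusted p = 0.033), which did not pass. The other member interactions lay between -0.09 and 0.30.

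Arm pairs outside the list with the smallest p were miR-199a (-0.69, limma adjusted p = 0.13), miR-4331 (1.07, 0.69) and miR-450c (-0.23, 0.69) at 1 week against sham in the frontal lobe, and miR-450b (-1.38, 0.15), miR-27b (-0.33, 0.26) and miR-4331 (0.99, 0.26) in the hippocampus and amygdala. For CsA against 1 day they were miR-126 (0.30), miR-671 (-0.37) and miR-769 (-0.47) in the frontal lobe (each 1.00), and miR-532 (-0.48), miR-424 (-0.51) and miR-493 (0.62) in the other region (each 0.59). Between regions they were miR-7 (1.38, 5.4e-11), miR-532 (-0.75, 2.6e-08) and miR-129a (-0.95, 2.6e-08). The region difference of the miR-664 ratio was thus smaller than these, at number 14 of 61 by size.

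Across the 105 libraries, with each region's mean removed, the ratios as defined above set miR-22 apart from the other 3 members. The ratios of miR-574 and miR-92b had a Pearson's r of 0.73, those of miR-664 and miR-92b 0.68 and those of miR-574 and miR-664 0.61. The miR-22 ratio had r of -0.59, -0.78 and -0.67 with miR-574, miR-664 and miR-92b. These sides depend on how the ratio is written. The dominant arm stands on top of the ratio for miR-574 and miR-664 and below for miR-22 and miR-92b. Written as dominant over minor arm, r of miR-22 or miR-92b with miR-574 or miR-664 turns sign. The precursor on its own side is then miR-92b. Among 58 arm pairs, the ratios most like that of miR-22 were those of miR-769 (0.81), miR-139 (0.78) and miR-885 (0.74). Most like miR-574 were miR-92b, miR-423 (0.61) and miR-664, most like miR-664 were miR-708 (0.70), miR-17 (0.69) and miR-92b, and most like miR-92b were miR-423 (0.73), miR-574 and miR-664. These points share animals, libraries, depth and the group differences, so the values are descriptions.

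Other miRNAs with the seed of miR-92b-3p, those of the miR-25 family, gave other values. miR-92a, miR-32 and miR-363 were in the table. miR-92a had group medians of 148 to 217 CPM, miR-363 of 6.04 to 12.7 CPM, and miR-32 was under 1 CPM. Between regions miR-92a differed by -0.12 ± 0.07 (SE; edgeR adjusted p = 0.11), miR-32 by -0.35 ± 0.22 (0.16) and miR-363 by -0.31 ± 0.11 (0.013), against 1.34 for miR-92b-3p. At 1 day against sham miR-92a differed by 0.11 and 0.36 and miR-363 by 0.67 and 0.81 in the 2 regions, where miR-92b-3p had -1.15 and -0.47. Neither miR-92a nor miR-363 passed at 1 week against sham or CsA against 1 day (edgeR adjusted p of 0.54 to 1.00).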

How the data were processed

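The authors deposited 1 matrix of raw counts per miRNA entry for 105 libraries (QIAseq miRNA libraries of RNA from fixed tissue, per the labels' protocols). Reads were handled with Trimmomatic 0.39 and cutadapt 1.9.1, per the submitters' processing notes. The aligner, the counting tool, the genome build and whether molecular identifiers were used were not given in the sources used here, so p-values cover the spread between libraries whatever the counts represent. Library totals were 98008 to 12703535 counts.

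Of 542 entries, those with the same mature name were reduced to the one with the highest total (457 names), and names whose counts differed by a share under 0.01 at totals of 100 or more were merged (448 miRNAs). edgeR 4.0.16 (R 4.3.3) fitted quasi-likelihood models per region over all 4 groups, with TMM scaling and filterByExpr (minimum count 10, minimum total 15). limma 3.58.1 fitted the arm ratios with a pseudocount of 0.5. Standard errors of edgeR values were taken as the log2 difference over the square root of F. Benjamini-Hochberg adjustment ran over all miRNAs or all arm pairs tested, with a threshold of 0.05. Intervals are 95% (1.96 standard errors) and unadjusted. Groups came from the labels. The region fit used the animal code in the library name as a block: deviations from group means correlated at a median of 0.23 between the 2 libraries of 1 animal (above 0.1 in 37 of 52) and at -0.00 between different animals.

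All 8 arms were described. Also named were, for each member ratio, the 3 arm pairs most alike by Pearson's r, the 3 non-member pairs with the smallest p per tested contrast, and the measured members of the miR-25 seed family. Members and lists were chosen with earlier results of these data known. Alternatives were RLE size factors, DESeq2 1.42.0, no low-count filter, a pseudocount of 5, the log10 library total as a covariate, no libraries under 1000000 counts, sets of animals by code digits (one of them also with the covariate, added after the data were seen), no animal block, and each library or animal left out. The fits were tested on simulated data. The labels name 50 subjects and the codes 53 animals. Permutations numbered 100000 (Python 3.11.15, scipy 1.17.1).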

Additional observations from a re-analysis of the deposited data

Results flagged for a closer look

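In groups of 4 to 10 libraries, 48 sets of member values (32 of levels and 16 of arm ratios) were examined for a single library that stood far from the others, by Dixon's critical value at 95%. Chance gives about 1 such set in 20, and 5 of the 48 were found, all of levels. Frontal lobe CsA replicate 4 was the highest of its group for 2 minor arms, miR-574-3p at 25.5 CPM (next 18.6) and miR-664-3p at 19.0 CPM (next 11.9). Frontal lobe CsA replicate 9 was the highest for miR-92b-5p at 11.3 CPM (next 5.81). Frontal lobe replicate 4 of 1 day was the highest for miR-574-5p at 232 CPM (next 165). Hippocampus and amygdala CsA replicate 2 was the lowest for miR-22-3p at 196 CPM (next 267).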

How the results depend on the processing

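Counts of called miRNAs at 1 week against sham depended on which animals entered. In the frontal lobe they were 0 over all animals, 1 with DESeq2 and 64 among codes beginning 14, 15, 16 or 17. In the hippocampus and amygdala they were 1 over all, 3 with DESeq2, 20 among codes beginning 14, 15, 16 or 17, and 0 with no filter, with the library total as a covariate or among codes beginning 10 or 11. Arm-ratio calls at 1 week went from 0 to 18 (frontal lobe) and 5 (hippocampus and amygdala) among codes beginning 14, 15, 16 or 17, and to 1 with no filter in the frontal lobe (miR-214). For CsA against 1 day in the hippocampus and amygdala, DESeq2 called 15 miRNAs and the set with codes beginning 11 called 1, against 0. Between regions a pseudocount of 5 gave 38 ratio calls against 25. With codes beginning 14, 15, 16 or 17 and the library total as a covariate together (added after the data were seen), the 1 week calls were 2 and 3 miRNAs and 0 ratios, and the miR-22 ratio turned to -0.087 in the hippocampus and amygdala. The cause of the other differences was not tested.

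Signs turned for the following values, among them the 1 week difference of miR-574-5p in the frontal lobe (-1.77) and that for CsA against sham in the other region (-1.23). With the library total as a covariate, miR-574-5p changed to 0.11 at 1 week (frontal lobe) and 0.10 for CsA against sham (hippocampus and amygdala), and the miR-22 ratio to -0.077 at 1 week (hippocampus and amygdala). Without libraries under 1000000 counts miR-574-5p was 0.20 at 1 week (frontal lobe). With a pseudocount of 5 the 1 week ratios were -0.068 (miR-22, frontal lobe), -0.084 (miR-22, hippocampus and amygdala) and 0.076 (miR-664, frontal lobe). Among codes beginning 10 or 11 they were -0.12 (miR-22) and 0.10 (miR-664) in the frontal lobe and 0.013 (miR-92b) in the hippocampus and amygdala, where miR-92b-5p was 0.091. Among codes beginning 12 or 13 the miR-664 ratio was -0.072 for CsA against 1 day (frontal lobe). Leaving out 1 library gave miR-574-5p at 1 week -1.995 to 0.074 (frontal lobe; the latter without sham replicate 15). It gave the miR-22 ratio at 1 week (hippocampus and amygdala) -0.078 to 0.13, with 0.12 at the smallest and -0.00017 at the largest adjusted p.

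Without the animal block (the replicate block of the region comparison) edgeR called 197 miRNAs against 209 and limma 19 ratios against 25, and of the members only miR-22-5p changed its call. Depth limits the minor arms in shallow libraries: miR-22-5p, miR-664-3p, miR-574-3p and miR-92b-5p had 0, 1, 2 and 2 counts in the sham library of 98008 counts.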
